A study of Homo sapiens with 6 samples.

Results

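Respiratory complex I is the NADH dehydrogenase of the inner mitochondrial membrane, and the genes with NDUF names encode its nuclear subunits and a set of assembly factors (NDUFAF). Probe sets were taken whose only gene symbol began with NDUF, then A, B, C, S, V or AF, then a number, with the brightest probe set kept per gene. This gave 41 of the 18417 genes tested: 33 subunits, 7 assembly factors and NDUFV1-DT, a noncoding transcript divergent from NDUFV1 that was kept out of the counts of subunits and assembly factors. What the arrays read was RNA pulled down with AGO2, an Argonaute protein loaded with microRNAs, hybridised to Affymetrix arrays. PC3 cells were used throughout, an established androgen-independent line from an aggressive prostate cancer. One group of 3 arrays came from cells given the mimic of miR-205 and the other of 3 from cells given a negative control mimic, each described in the series as biological triplicates, and the stated aim was to find miR-205 targets. All 6 arrays were AGO2 immunoprecipitates of the same line, so AGO2-bound RNA was not set against input RNA here, and a change in AGO2 binding, in RNA per cell or in the number of cells cannot be told apart.

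Complex I takes electrons from NADH at the tip of its matrix arm and hands them through flavin and iron-sulfur clusters to ubiquinone, while its membrane arm pumps protons. The core subunits of the matrix arm, which hold the flavin and the clusters, are nuclear genes, and those of the membrane arm are encoded by the mitochondrial genome. Accessory subunits surround this core, and assembly factors help to build the complex but are not part of it when finished. The microRNA that the mimic copies pairs with its targets mainly through its seed, bases 2 to 8 of the mature strand. That strand is shown because it is the agent that separates the groups, with the seed in capitals (RefSeq, GRCh38.p14, chr1:209432166-209432187, plus strand):
hsa-miR-205-5p: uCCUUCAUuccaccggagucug

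The labelled line was checked against its markers. On the log2 scale of the deposited signal, all 5 markers chosen for PC3 cells (KRT8, KRT18, VIM, CD44 and ITGA6) had means of 11.6 or more over the 6 arrays. Of these, KRT8 (0.89) and KRT18 (0.55) were higher with miR-205 and VIM (-0.26) and CD44 (-0.28) lower, while ITGA6 (0.07) did not pass. KLK3, which encodes prostate-specific antigen and is low in PC3, read 6.06 with miR-205 and 6.08 with the control. A level of 6.04, the 95th percentile of 341 olfactory receptor genes, served as a mark of dim signal. Below it lay 3 of 4 leukocyte, 3 of 4 endothelial, 3 of 4 liver and 2 of 6 fibroblast markers. PECAM1, an endothelial adhesion gene, was lower by 0.98 on the log2 scale with miR-205 (limma adjusted p = 0.000227). The mean of the 4 endothelial markers, PECAM1 included, ran from 5.64 to 5.66 with miR-205 and from 5.90 to 5.98 with the control. The other endothelial markers, CDH5 (-0.19), TEK (-0.01) and VWF (0.001), did not pass. LUM, a fibroblast marker under the dim mark, was higher by 0.36 (adjusted p = 0.0459). The part of these markers in the complex I results was not tested. Negative control replicate 2 stood apart: its differences from the other control arrays had an SD over genes of 0.215 and 0.218, against 0.155 between those 2 arrays and 0.131 to 0.146 among miR-205 arrays.

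With the miR-205 mimic, 20 of 33 complex I subunits (60.6%) and 4 of 7 assembly factors (57.1%) were higher in the AGO2 immunoprecipitate at an adjusted p under 0.05, and 0 of either were lower, by limma (0 lower also at an unadjusted p under 0.05). Over all 18417 genes tested, 26.6% were called in either direction, 12.6% higher and 14% lower. The median log2 difference, miR-205 minus control, was 0.24 for subunits and 0.22 for assembly factors, against -0.02 for all genes tested. Most of these rises were small. Called subunits rose by 0.21 to 1.41 on the log2 scale and called assembly factors by 0.22 to 0.77, while NDUFB5 alone more than doubled its signal at 2.65-fold. The miR-205 arrays lay above all control arrays for 26 of 33 subunits and 5 of 7 assembly factors, as they did for 19.9% of all genes, and 42.2% of all genes were separated in either direction. Among the 3589 genes with a mean of at least 10, close to the subunits' median level of 10.2, 18.4% were called higher.

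The counts moved with single arrays, and the direction did so far less. Leaving out miR-205 replicate 1, 2 or 3 left 14, 17 or 12 subunits and 1, 1 or 2 assembly factors higher. Of all genes tested, 8.79%, 8.62% and 9% were called higher in those fits. Without control replicate 1, 2 or 3 the counts were 15, 23 or 13 subunits and 3, 5 or 1 assembly factors, with 9.29%, 14.5% and 9.26% of all genes called higher. In every one of these 6 fits 0 subunits and 0 assembly factors were called lower, and 38 of the 40 genes had a positive difference in all 6. Of the 24 genes called, 13 were called whichever array was left out: NDUFV1, NDUFS1, NDUFS7, NDUFA1, NDUFA2, NDUFA5, NDUFA7, NDUFA10, NDUFA11, NDUFB5, NDUFB6, NDUFB8 and the assembly factor NDUFAF5. Control replicate 2 was the highest of the 3 control arrays for 25 of 33 subunits and for 5 of 7 assembly factors, and for 6251 of all 18417 genes.

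**Figure D1:**
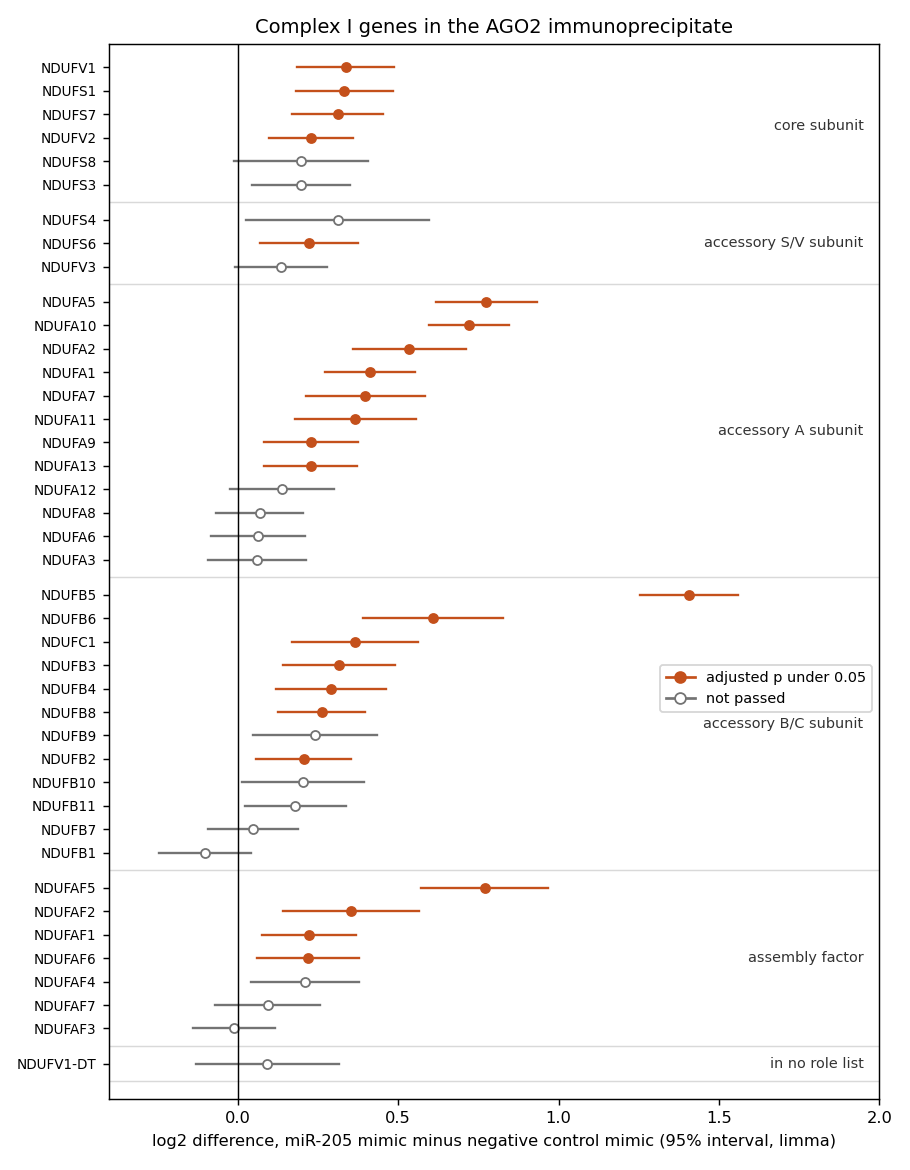
Log2 difference (horizontal axis, miR-205 mimic minus negative control mimic) of the 41 complex I genes by role, with 95% intervals from limma over 3 arrays per group; filled points passed an adjusted p under 0.05. The called genes lie between 0.21 and 1.41, with NDUFB5 far to the right, and NDUFB1 and NDUFAF3 are the genes left of 0.

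Among the core subunits, which carry the electron path, 4 of 6 measured rose and the other two did not pass. NDUFV1, which binds NADH and flavin, read 9.94, 9.96 and 9.97 in miR-205 replicates 1 to 3 and 9.54, 9.74 and 9.59 in the control arrays. The rise was 0.34 ± 0.07 on the log2 scale (± SE, with 3 arrays in each group, limma adjusted p = 0.00653). NDUFS1, the largest subunit and a carrier of iron-sulfur clusters, read 10.86, 10.94 and 10.95 against 10.50, 10.58 and 10.68. It rose by 0.33 ± 0.07 (adjusted p = 0.00696). The groups did not overlap for either gene, and control replicate 2 was the highest control array for NDUFV1. NDUFS7, which holds the last iron-sulfur cluster before ubiquinone, read 8.41, 8.49 and 8.56 against 8.16, 8.21 and 8.16 and rose by 0.31 ± 0.06 (adjusted p = 0.00683).

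NDUFV2, an iron-sulfur partner of NDUFV1, read 12.29, 12.26 and 12.29 against 12.06, 12.10 and 12.00. Its rise of 0.23 ± 0.06 (adjusted p = 0.019) was separated on every array, but the call was lost without any miR-205 array or without control replicate 3 (adjusted p = 0.0572 to 0.0635). NDUFS3, a subunit of the ubiquinone end, read 10.80, 10.74 and 10.76 against 10.52, 10.69 and 10.51. Its difference of 0.20 ± 0.07 did not pass (adjusted p = 0.0611), though it did without control replicate 2 (0.26, adjusted p = 0.0149; 0.0149 to 0.166 over the arrays left out). NDUFS8, which carries iron-sulfur clusters next to NDUFS7, read 9.70, 9.65 and 9.97 against 9.52, 9.66 and 9.55. Its groups overlapped, and the difference of 0.20 ± 0.09 did not pass (adjusted p = 0.151).

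Of 3 accessory subunits with S or V names, 1 was called. NDUFS6, a zinc-binding subunit of the matrix arm, read 9.73, 9.91 and 9.74 against 9.56, 9.60 and 9.56, and rose by 0.22 ± 0.07 (adjusted p = 0.0395). Its call held only without control replicate 2 (adjusted p = 0.0474) and not when any other array was left out (0.0551 to 0.148). NDUFS4, a subunit often mutated in Leigh syndrome, read 10.11, 10.03 and 9.87 against 9.82, 9.86 and 9.39, and its difference of 0.31 ± 0.12 did not pass (adjusted p = 0.102). Without control replicate 2 it was 0.40 and passed (adjusted p = 0.0431; 0.0431 to 0.258 over the arrays left out). NDUFV3, at the NADH end, differed by 0.14 ± 0.06 (adjusted p = 0.15), with the miR-205 arrays just above the control arrays.

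The accessory subunits with A names rose in 8 of 12 cases, with 0 lower and a median difference of 0.30. NDUFA5, in the ubiquinone-facing part of the matrix arm, read 9.79, 9.83 and 9.73 against 9.03, 9.09 and 8.90. It rose by 0.77 ± 0.07, or 1.71-fold (adjusted p = 0.000137). NDUFA10, a membrane-arm subunit related in fold to nucleoside kinases, was the most even of the set. Its arrays read 9.45, 9.45 and 9.44 with miR-205 and 8.70, 8.71 and 8.76 with the control, and it rose by 0.72 ± 0.06 (adjusted p = 6.82e-05). In both genes the gap between groups was several times the spread within either.

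NDUFA2, a thioredoxin-like subunit of the matrix arm, read 11.30, 11.09 and 11.17 against 10.64, 10.75 and 10.57 and rose by 0.53 ± 0.08 (adjusted p = 0.00138). NDUFA1, a small membrane subunit encoded on the X chromosome, read 9.96, 9.94 and 9.97 against 9.46, 9.60 and 9.58 and rose by 0.41 ± 0.06 (adjusted p = 0.00167). NDUFA7 read 10.57, 10.45 and 10.67 against 10.07, 10.29 and 10.14 and rose by 0.40 ± 0.08 (adjusted p = 0.00733). These 3 genes were separated between groups on every array. NDUFA11, a membrane-arm subunit, rose by 0.37 ± 0.08 (adjusted p = 0.0117; up to 0.049 with an array left out).

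The remaining A subunits showed smaller differences. NDUFA9, which resembles short-chain dehydrogenases, rose by 0.23 ± 0.06 (adjusted p = 0.0294), a call that held without miR-205 replicate 2 or control replicate 2 and was lost without any other array (0.0808 to 0.102). NDUFA13, also known as GRIM-19, rose by 0.23 ± 0.06 (adjusted p = 0.0288) and kept its call only without control replicate 2 (0.0149, against 0.064 to 0.0918 without another array). NDUFA12 (0.14), NDUFA8 (0.07), NDUFA6 (0.06) and NDUFA3 (0.06) did not pass, with adjusted p from 0.2 to 0.564. The 95% intervals of the last 3 ended at 0.20, 0.21 and 0.21, and so exclude a rise as large as the 0.41 of NDUFA1.

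The accessory subunits with B or C names belong to the membrane arm, and 7 of 12 rose, with 0 lower and a median of 0.25. NDUFB5, a membrane-arm subunit, stood far from the rest. It read 10.97, 10.90 and 10.83 with miR-205 and 9.41, 9.52 and 9.55 with the control. The rise of 1.41 ± 0.07 (adjusted p = 1.13e-05) was the 33rd largest of all genes tested, and it lay between 1.36 and 1.44 whichever array was left out. The next largest rise among subunits, that of NDUFA5, was 0.77.

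NDUFB6, of the same arm, read 9.47, 9.61 and 9.62 against 8.81, 9.16 and 8.90 and rose by 0.61 ± 0.10 (adjusted p = 0.00216). Control replicate 2 was its highest control array by a clear margin, and without that array the rise was 0.71. NDUFC1 read 9.06, 9.07 and 9.17 against 8.77, 8.88 and 8.55 and rose by 0.37 ± 0.09 (adjusted p = 0.0139), with an adjusted p of 0.0562 without miR-205 replicate 3 (0.0044 to 0.0562 over the arrays left out). Both genes were separated between groups on every array. NDUFB3 read 9.42, 9.41 and 9.57 against 9.16, 9.26 and 9.04 and rose by 0.32 ± 0.08 (adjusted p = 0.016), a call lost without miR-205 replicate 3 (0.0627) or control replicate 3 (0.055).

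NDUFB4 was read by a pair of probe sets with the same value on every array, 10.94, 10.79 and 10.97 against 10.58, 10.71 and 10.53, so both may read the same or near-identical sequence and its value is uncertain. It rose by 0.29 ± 0.07 (adjusted p = 0.0207) and kept its call only without miR-205 replicate 2 or control replicate 2 (0.0623 to 0.0776 without another array). NDUFB8 rose by 0.26 ± 0.06 (adjusted p = 0.0119). NDUFB2 rose by 0.21 ± 0.07 (adjusted p = 0.0463), the weakest call among subunits, which held only without miR-205 replicate 2 (0.0491, against 0.0517 to 0.147 without another array). NDUFB9 (0.24), NDUFB10 (0.20) and NDUFB11 (0.18) did not pass, with adjusted p of 0.0679, 0.108 and 0.0887. Leaving out control replicate 2 brought NDUFB9 to 0.30 (0.0322; 0.0322 to 0.206 over the arrays left out) and NDUFB10 to 0.29 (0.0148; 0.0148 to 0.294).

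NDUFB7 and NDUFB1 had the lowest differences among the subunits with B or C names. NDUFB7 differed by 0.05 ± 0.06, with overlapping groups (adjusted p = 0.627). NDUFB1 read 7.15, 7.15 and 7.14 with miR-205 and 7.35, 7.20 and 7.20 with the control. Its miR-205 arrays all lay below the control arrays, but the difference of -0.10 ± 0.06 did not pass (adjusted p = 0.284).

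**Figure D2:**
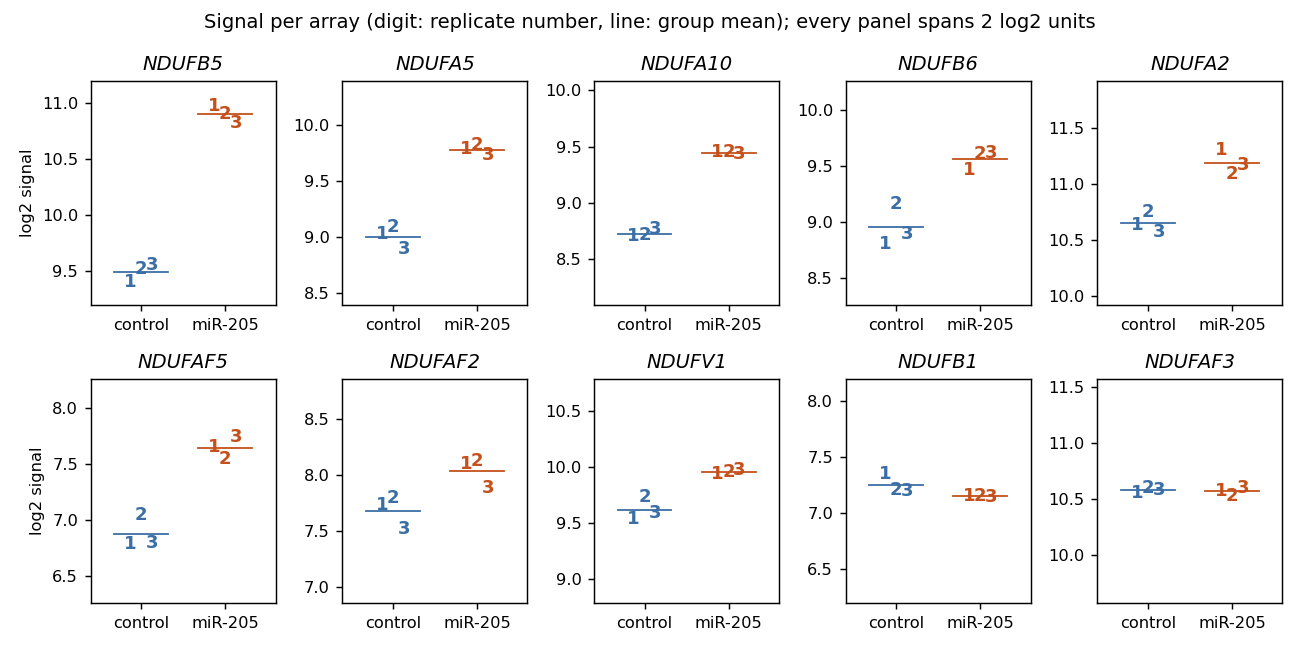
Log2 signal (vertical axis) of 10 complex I genes on each array, by group (horizontal axis); digits are replicate numbers, lines are group means, and every panel spans the same range. NDUFB5 shows the widest gap, control replicate 2 is the highest control array for NDUFB6, NDUFAF5 and NDUFV1, and NDUFAF3 overlaps between groups.

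Assembly factors ran from no detectable difference to 0.77. NDUFAF5, an enzyme that hydroxylates NDUFS7 during early assembly, read 7.65, 7.54 and 7.74 against 6.78, 7.04 and 6.80. It rose by 0.77 ± 0.09, or 1.7-fold (adjusted p = 0.000438), and by 0.72 to 0.85 with an array left out. NDUFAF2, a late chaperone that holds the place later taken by NDUFA12, read 8.09, 8.12 and 7.88 against 7.73, 7.79 and 7.52. It rose by 0.35 ± 0.09 (adjusted p = 0.0225), a call lost without miR-205 replicate 1, miR-205 replicate 2 or control replicate 3 (0.072 to 0.0858). Its substitute NDUFA12, given above, did not pass.

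NDUFAF1, which helps to build the membrane arm, read 8.66, 8.69 and 8.64 against 8.36, 8.53 and 8.43. The rise of 0.22 ± 0.06 (adjusted p = 0.0325) kept its call only without control replicate 2 (0.0131, against 0.0727 to 0.11 without another array). NDUFAF6, needed early in assembly, read 7.70, 7.63 and 7.65 against 7.52, 7.48 and 7.32. It rose by 0.22 ± 0.07 (adjusted p = 0.0465), and the call held only without control replicate 1 (0.0464) or control replicate 2 (0.0451), with 0.0982 to 0.138 otherwise. For both genes the groups did not overlap.

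NDUFAF3 and NDUFAF4 bind each other during assembly of the ubiquinone-facing part, and neither passed. NDUFAF4 read 9.43, 9.42 and 9.32 against 9.18, 9.30 and 9.07, a difference of 0.21 ± 0.07 (adjusted p = 0.0671; 0.0204 without control replicate 2, and 0.0204 to 0.19 over the arrays left out). NDUFAF3 read 10.57, 10.53 and 10.60 against 10.55, 10.60 and 10.58, a difference of -0.01 ± 0.06 (adjusted p = 0.914, 95% interval -0.14 to 0.12). NDUFAF7, a methyltransferase needed for assembly, read 8.83, 8.94 and 8.74 against 8.80, 8.77 and 8.66 and did not pass (0.09 ± 0.07, adjusted p = 0.389). For NDUFAF3 and NDUFAF7 the groups overlapped.

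Subunits and assembly factors were then compared as groups. The mean of the 33 subunits exceeded the mean of all genes by 2.44 ± 0.02 in the miR-205 arrays and by 2.12 ± 0.08 in the control arrays (SD, n = 3 arrays each). For the 7 assembly factors these values were 0.90 ± 0.02 and 0.63 ± 0.09. Each pair of groups was separated on every array, and control replicate 2 came closest to the miR-205 arrays in both (2.21 for subunits and 0.72 for assembly factors). The subunit mean minus the assembly factor mean was 1.52, 1.52 and 1.59 with miR-205 and 1.48, 1.49 and 1.52 with the control. The group values were 1.54 ± 0.04 and 1.49 ± 0.02 (SD, n = 3 each), higher with miR-205, and control replicate 3 lay just above miR-205 replicate 2. The subunit mean includes NDUFB5, with its rise of 1.41, and was not taken without it. The median differences of subunits and assembly factors were close, at 0.24 and 0.22. The members were chosen with earlier results of these data known, and no test was run on the groups. The 2 sets also differed in signal, with a median level of 10.2 for subunits and 8.55 for assembly factors.

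**Figure D3:**
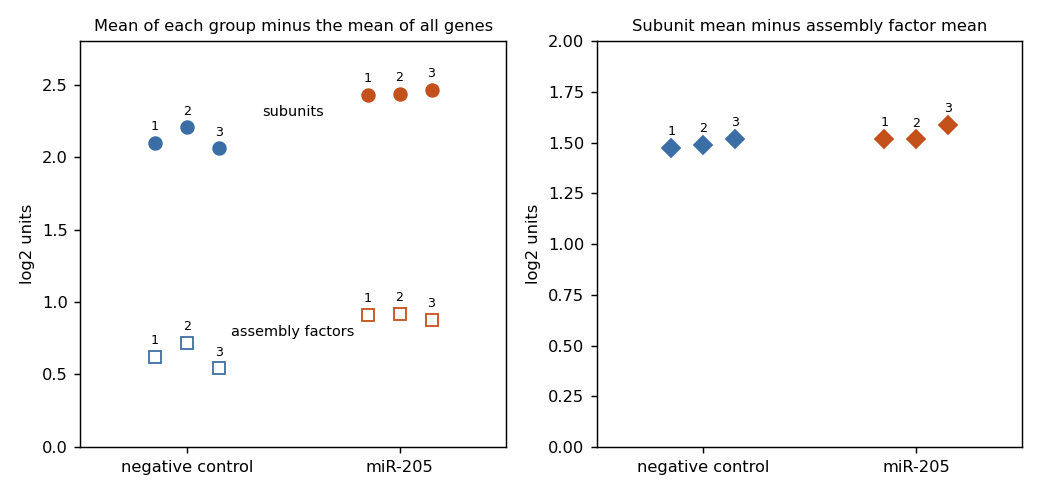
Left, mean log2 signal of the 33 subunits (circles) and 7 assembly factors (open squares) minus the mean of all genes, for each array (digit: replicate). Right, subunit mean minus assembly factor mean; both sets stood higher in the miR-205 arrays, while their distance ran from 1.48 to 1.59 over the 6 arrays.

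Several genes were read by more than 1 probe set. The second NDUFV2 probe set was higher by 0.22, close to the 0.23 of the one used. For NDUFAF2 it was higher by 0.20 against 0.35, and the second NDUFS4 probe set was dim at 3.66 and differed by -0.08. NDUFV1-DT was dim as well (5.22 ± 0.09 against 5.13 ± 0.19, SD, n = 3 each) and differed by 0.09 ± 0.10 (adjusted p = 0.546). No member that was called had a group mean below the dim mark of 6.04.

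Genes of complex I without such a name were read from a list written from textbook knowledge. NDUFAB1, the acyl carrier protein that is also a complex I subunit, read 9.16, 9.18 and 9.11 against 8.64, 8.98 and 8.80 and rose by 0.34 ± 0.09 (adjusted p = 0.0201). Among 12 assembly factors with other names, 5 were higher and 0 lower, and their median difference was 0.20. By comparison, 12.6% of all genes tested were called higher and 14% lower. TMEM126A (0.42), FOXRED1 (0.33), ECSIT (0.30) and TMEM70 (0.29) rose, as did TMEM126B (0.28), a partner of NDUFAF1 and ECSIT in assembly. ACAD9, another partner in that complex, differed by 0.08 ± 0.06 and did not pass (adjusted p = 0.392).

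The other respiratory complexes and general mitochondrial genes give the surroundings of these values. For comparison, 12.6% of all genes tested were called higher and 14% lower. Among genes with a mean of at least 10 these shares were 18.4% and 21.8%. In complex III 4 of 8 genes rose and 0 fell (median 0.23), in complex IV 7 of 10 rose and 0 fell (0.28), and in complex V 6 of 17 rose and 1 fell (0.17). In complex II, 1 of 3 rose, SDHD by 0.38, as read by the brighter of its 2 probe sets. The other was not examined. COX7B, a small complex IV subunit, rose by 1.39 ± 0.10, close to NDUFB5. Of 14 genes for import, chaperones and other parts found in all mitochondria, 2 rose (14.3%, near the share of all genes), 1 fell and 11 did not pass (median 0.11). Those 2 were the chaperonins HSPD1 (0.42) and HSPE1 (0.37), and the one that fell was PHB1, a prohibitin (-0.47). Citrate synthase (CS) differed by 0.11 ± 0.06 and did not pass (adjusted p = 0.218). Whether these lists differ from complex I was not tested.

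Regulators of nuclear genes for mitochondria were mixed. NRF1, a factor that binds many respiratory chain promoters, read 7.82, 7.59 and 7.56 with miR-205 and 8.12, 8.15 and 8.24 with the control and fell by 0.51 on the log2 scale (adjusted p = 0.00225). GABPA, the DNA-binding part of the ETS factor also called NRF2, read 9.38, 9.15 and 9.47 against 9.72, 9.68 and 9.76 and fell by 0.39 (adjusted p = 0.0096). GABPA was read by 2 probe sets. The values given are those of the brighter, and whether the other fell as well was not examined. The groups did not overlap for either factor. The coactivator PPRC1 fell by 0.27 (adjusted p = 0.00897). TFAM, which packages and transcribes mitochondrial DNA, rose by 0.42 (adjusted p = 0.00205), and so did TFB2M (0.29) and GABPB2 (0.33), a partner of GABPA. Of all genes tested, 12.6% were called higher and 14% lower. The 12 regulators measured split into 3 that rose, 3 that fell and 6 that passed in neither direction (median -0.07). Those 6 were PPARGC1A (-0.13), GABPB1 (-0.10), POLRMT (-0.09), YY1 (-0.05), PPARGC1B (0.08) and ESRRA (0.13).

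**Figure D4:**
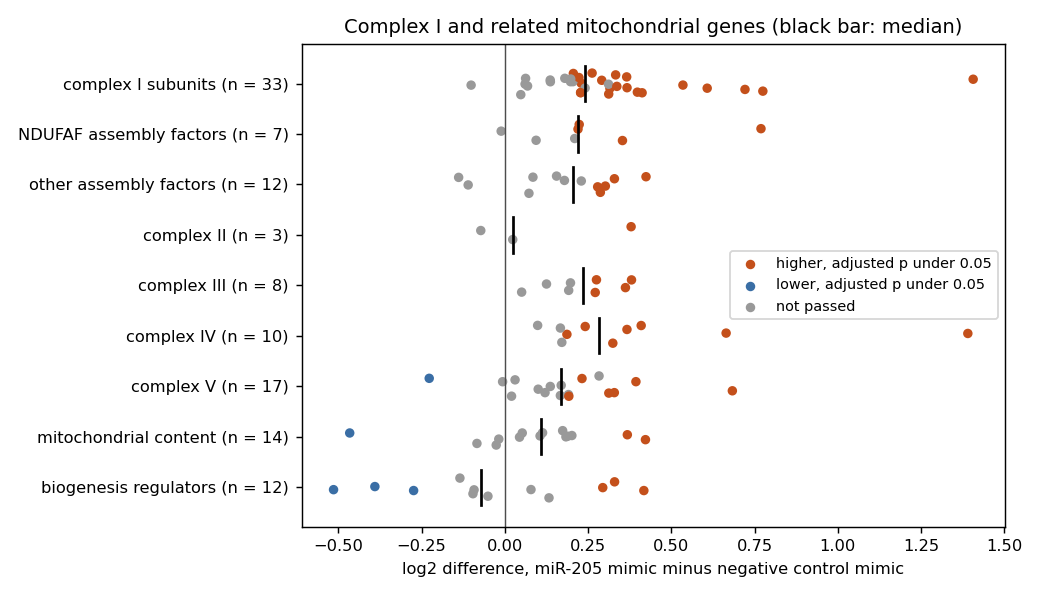
Log2 difference (horizontal axis, miR-205 mimic minus negative control mimic) of each gene in complex I and related lists, with black bars at the medians; colour gives the limma call at an adjusted p under 0.05. The medians are 0.24 for complex I subunits, 0.22 for NDUFAF factors and -0.07 for regulators.

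Since NRF1 and GABPA are known for binding respiratory chain promoters, the members' promoters were searched for short cores of their motifs. RefSeq promoters (GRCh38.p14, 250 bases before to 50 after the start) were at hand for 37 of the 40 subunits and assembly factors, and for 14237 genes tested. NDUFB5, NDUFB9 and NDUFAF6 had none, so the member with the largest rise, NDUFB5, was not searched. The NRF1 core CATGCGC, on either strand, was found in 8 of 37 members (21.6%) and in 5.82% of promoters of genes tested. The YY1 core AAGATGG was in 7 of 37 (18.9%) against 6.51%, the ETS core CCGGAAG in 6 of 37 (16.2%) against 14.6%, and the GC box GGGCGG in 22 of 37 (59.5%) against 60%. A match is no evidence of binding, and the members hold too few matches to compare called with other genes: the NRF1 core was in 5 of 22 called members and 3 of 15 others.

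The matches to the NRF1 core upstream of the start are shown for 4 members, chosen because the whole window shown lies before the start. The core is in capitals, as written on the strand of the gene, and for NDUFS6 it appears as its reverse complement. NDUFS7, NDUFS6 and NDUFB4 were called higher and NDUFA6 was not. In NDUFB4 a match on the other strand overlaps the one in capitals. The windows are chr19:1383809-1383867 (plus strand) for NDUFS7, chr5:1801335-1801393 (plus) for NDUFS6, chr3:120596154-120596212 (plus) for NDUFB4 and chr22:42090905-42090963 (minus) for NDUFA6:
NDUFS7: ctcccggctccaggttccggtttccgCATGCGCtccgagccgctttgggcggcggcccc
NDUFS6: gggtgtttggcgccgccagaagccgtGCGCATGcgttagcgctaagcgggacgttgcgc
NDUFB4: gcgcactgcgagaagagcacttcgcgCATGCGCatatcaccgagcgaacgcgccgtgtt
NDUFA6: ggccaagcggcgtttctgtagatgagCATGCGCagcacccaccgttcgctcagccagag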

How the data were processed

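The submitters' processing notes name Expression Console 1.1.2 and RMA, and the deposited log2 signals per probe set were taken without change. The annotation, its build and any step before RMA are not given in the sources used here. Of 33297 probe sets, 21214 were in the platform's probe table, and 19460 with 1 gene symbol gave 18417 genes (highest mean over the 6 arrays per gene); 1754 with several symbols were not named. The groups were set against each other by limma 3.58.1 under R 4.3.3, in a model with the mimic alone, with two-sided moderated tests adjusted by Benjamini-Hochberg over all genes (threshold 0.05). Adjusted p-values in the text come from this fit unless an array left out, another setting or all probe sets are named with them.

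The members, gene lists, motifs and tests were chosen with earlier results of these data known. Per-array values were given, by rule, for all core subunits and assembly factors and for up to 5 called members per other role. From each related list up to 4 genes of smallest p were named, besides NDUFAB1, NRF1 and GABPA. Others (NDUFS4, TMEM70, ACAD9, CS, GABPB2 and PPRC1 among them) were named after their values were seen. Alternatives covered normalization, dim genes, probe set summary, variance model, array weights, a replicate block and each array left out. The number of arrays limits precision. The fit was tested on 10 simulated data sets, each with 200 changed genes and noise independent between genes and arrays. On average it called 25.1% of changes of 1.25-fold, 73.3% of 1.5-fold and 94.8% of 2-fold, and 3.87% of its calls were false. In the real data 26.6% of genes were called and control replicate 2 stood apart, so these rates need not hold there. A gene that did not pass is not shown to be unchanged.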

Additional observations from a re-analysis of the deposited data

Results flagged for a closer look

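Probe sets shared by several genes stayed outside the comparisons, and 2 that include a complex I subunit had miR-205 arrays above all control arrays. They were picked for that separation, which 19.9% of all genes tested also showed. The probe set shared by NDUFS5, SNORA70, RPL10 and DNASE1L1 was higher by 0.30 (12.8 against 12.5 on the log2 scale, adjusted p = 0.0199 by limma over all probe sets). The probe set shared by NDUFC2 and the read-through NDUFC2-KCTD14 was higher by 0.13 (12.2 against 12.1, adjusted p = 0.245) and did not pass. Another probe set, shared by NDUFC2-KCTD14 and KCTD14, overlapped between groups and differed by -0.08. None of these values can be given to a single gene.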

How the results depend on the processing

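Under the 8 settings other than leaving out an array, 19 to 23 subunits and 3 to 5 assembly factors were higher and 0 were lower, and 20 of the 24 called genes were called in all 8. Of all genes tested, 12% to 14.2% were higher in 7 of these settings, and 18.3% of 13591 with dim genes left out. With 1 array left out the counts ran from 12 to 23 subunits and from 1 to 5 assembly factors, and the medians from 0.21 to 0.29 and from 0.16 to 0.27. The cause was not tested. NDUFB2 was lost with arrays centred on the median (adjusted p = 0.0504) and with array weights (0.0587), NDUFAF6 with centring (0.053) and NDUFAF2 with the mean of its probe sets (0.0526). Among genes not called, NDUFS3 was called in 5 of these 8 settings, NDUFB9 in 4, NDUFAF4 in 3 and NDUFB10, NDUFB11 and NDUFS4 in 1 each. The difference of NDUFAF3 was 0.0087 after repeated quantile normalization, 2.03e-05 once the trend with signal level was removed (a setting chosen after seeing the data) and from -0.027 to 0.0093 with an array left out. That of NDUFV1-DT was -0.015 without control replicate 2. Deviations from the group mean correlated over genes by 0.06, 0.09 and 0.01 for same-numbered arrays. For differently numbered arrays the values ran from -0.09 to 0.05. Such deviations are tied to each other within a group, so these small values do not settle whether replicate numbers pair the arrays. The fit with the replicate block gave 20 subunits and 3 assembly factors higher, of which 18 and 3 were those called without it. It lost NDUFA9 (0.06), NDUFB2 (0.0769) and NDUFAF6 (0.0559) and gained NDUFS4 (0.0273) and NDUFB9 (0.0304).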

Other observations

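Longer complex I genes tended to have larger differences, while the opposite sign held over all genes. Over the 40 subunits and assembly factors, the span of the gene and its log2 difference had a Spearman's rho of 0.36 and a Pearson's r of 0.30 with the log2 span. Over 18386 genes tested these were -0.13 and -0.15. These correlations are across genes on the same 6 arrays, and genes are not independent replicates. Signal level and difference had a rho of -0.22 over the 40 members and 0.01 over all genes tested. The share of G and C bases in the promoter had a rho of -0.11 over 37 members and -0.07 over 14237 genes tested. Of these properties, the span had the largest correlation over members.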
